A study of Mus musculus with 12 samples.

Results

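The canonical Wnt/β-catenin core was followed through 10 genes of the 48795 in the count table. They are *Ctnnb1* (β-catenin), the destruction-complex genes *Axin1*, *Axin2*, *Apc*, *Gsk3a*, *Gsk3b* and *Csnk1a1*, and the transcription factor genes *Tcf7*, *Tcf7l2* and *Lef1*. The genes were chosen by name, and their Ensembl identifiers were matched to mouse symbols. RNA-Seq was performed on long-term hematopoietic stem cells (LT-HSCs), gated in bone marrow as CD150+CD48–Flt3– cells of the Lin–Sca-1+c-KIT+ fraction and sorted for low or high surface c-KIT, the receptor for stem cell factor. The 4 groups were CML c-KITlo, CML c-KIThi, normal c-KITlo and normal c-KIThi LT-HSCs, with 3 libraries each.

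CML cells came from Scl-tTA-BCR-ABL mice, in which a tetracycline-controlled activator under *Tal1* (Scl) regulatory sequence drives BCR-ABL once doxycycline is withdrawn. The model therefore expresses the oncogene in Scl-expressing cells, and the study's scheme transplants this marrow into irradiated recipients. For the normal groups the sources differ. The sample labels give normal B6 mice, while the scheme describes recipients of the same transgenic marrow held on doxycycline. Whether the normal cells carried the transgenes is therefore not settled here. The methods and labels state 4 biological replicates per group, the libraries analysed here number 3 per group, and no label ties a library to a mouse, so the p-values below measure the spread between these libraries.

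β-Catenin carries the canonical Wnt signal into the nucleus. When no Wnt ligand is bound, the scaffolds AXIN1, AXIN2 and APC hold β-catenin beside casein kinase 1α (*Csnk1a1*) and the glycogen synthase kinases GSK-3α and GSK-3β, whose phosphorylation marks it for ubiquitination and degradation. Wnt binding to Frizzled and LRP receptors disables this complex, and stabilized β-catenin then acts with TCF/LEF factors, encoded by *Tcf7*, *Tcf7l2* and *Lef1* among others, at target genes that include *Axin2* itself. Much of this control acts on protein, which RNA counts do not measure. In mouse models of BCR-ABL leukemia, β-catenin is known for its role in the self-renewal of leukemia stem cells.

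The promoters are shown for β-catenin, for its feedback target *Axin2* and for the kinase paralogs *Gsk3a* and *Gsk3b*. No RefSeq window was available for *Axin1*, which was called below together with *Ctnnb1*. Each line is the 250 bases before the RefSeq start in GRCm38.p6, written 5′ to 3′ on the gene's strand. The windows lie at chr9:120933150-120933399 (+) for *Ctnnb1*, chr11:108920099-108920348 (+) for *Axin2*, chr7:25237852-25238101 (–) for *Gsk3a* and chr16:38088751-38089000 (+) for *Gsk3b*. Capitals mark matches, on either strand, to the TCF/LEF letters CTTTGAT or CTTTGAA or to the GC box letters GGGCGG, and no match of one overlaps the other here.
Ctnnb1: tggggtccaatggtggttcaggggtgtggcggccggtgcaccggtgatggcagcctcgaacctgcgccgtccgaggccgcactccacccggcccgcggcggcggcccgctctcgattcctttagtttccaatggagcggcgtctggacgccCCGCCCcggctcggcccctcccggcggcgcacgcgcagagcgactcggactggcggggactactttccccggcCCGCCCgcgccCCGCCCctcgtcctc
Axin2: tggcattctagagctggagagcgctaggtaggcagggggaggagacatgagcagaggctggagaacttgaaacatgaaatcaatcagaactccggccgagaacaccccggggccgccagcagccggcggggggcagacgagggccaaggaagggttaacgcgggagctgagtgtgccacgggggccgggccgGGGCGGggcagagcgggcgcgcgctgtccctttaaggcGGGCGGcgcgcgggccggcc
Gsk3a: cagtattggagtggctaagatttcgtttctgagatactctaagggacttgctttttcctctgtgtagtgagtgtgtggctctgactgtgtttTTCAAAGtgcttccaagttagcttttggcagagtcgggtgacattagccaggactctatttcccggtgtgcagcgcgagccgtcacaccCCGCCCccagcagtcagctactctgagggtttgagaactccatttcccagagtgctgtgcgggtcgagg
Gsk3b: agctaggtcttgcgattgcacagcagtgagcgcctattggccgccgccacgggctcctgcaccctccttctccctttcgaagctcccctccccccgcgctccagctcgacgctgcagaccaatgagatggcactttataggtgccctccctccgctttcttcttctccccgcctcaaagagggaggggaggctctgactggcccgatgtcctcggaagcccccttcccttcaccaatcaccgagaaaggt
The *Gsk3a* window held CTTTGAA on the reverse strand at −158 and a reverse GC box at −69. The *Ctnnb1* window held reverse GC boxes at −99, −26 and −15, *Axin2* forward ones at −58 and −20, and *Gsk3b* neither motif. The RefSeq start of *Ctnnb1* used here lies inside the GENCODE span given below, which begins upstream of it. Among 32851 RefSeq windows of this length, 7.48% held a TCF/LEF match and 32.7% a GC box. For the 7 core genes with a window shown or searched, the numbers were 1 and 10 of 13 windows. The *Ctnnb1* windows overlap each other and share GC boxes, as do *Lef1* windows 1 and 2, so the same boxes entered more than 1 window. A match is a stretch of letters and not a measured site.

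Sequencing gave between 7753878 and 31020852 counts on genes per library. All c-KITlo libraries, CML and normal, held more counts on genes (14487608 to 31020852) than all c-KIThi libraries (7753878 to 13213021). Entries placed on several genome positions made up 34.3% to 52.3% in c-KITlo libraries and 58.9% to 66.9% in c-KIThi libraries, and counts on genes with under 1000 exonic bases 1.4% to 5.45% and 7.03% to 13.8%. Mitochondrial counts were 0.141% to 0.271% in c-KITlo libraries and 0.416% to 2.88% in c-KIThi libraries. These library features moved with the c-KIT gate in both CML and normal cells, and every c-KITlo against c-KIThi value below carries them. The normal c-KITlo libraries stood apart: the median correlation of log2 CPM (counts scaled to a common library size, with trimmed-mean, TMM, normalisation) with the rest of their own group was 0.711 to 0.752, against 0.938 to 0.949 for the CML c-KITlo libraries.

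LT-HSC markers were present in every group, with none of 10 at 0 over a group and summed levels of 1986 to 2400 CPM in CML c-KITlo, 790 to 1022 CPM in CML c-KIThi, 1978 to 3746 CPM in normal c-KITlo and 917 to 938 CPM in normal c-KIThi libraries. Single libraries could be low: *Slamf1*, the gene of CD150, had a lowest value of 0.0332 and a median of 60.5 CPM in normal c-KITlo. Of these 10 genes edgeR called 1 higher in CML c-KITlo and 3 higher in normal c-KITlo than in the matching c-KIThi group, and 0 lower. Among all tested genes 2.91% were called higher and 5.53% lower in the CML pair, and 3.1% and 3.4% in the normal pair. The RNA of the sorted receptor did not follow the gate. *Kit* had 470 to 565 CPM in CML c-KITlo libraries and 57.6 to 218 CPM in CML c-KIThi libraries, without overlap but not called (log2 fold change 2.01, edgeR adjusted p = 0.115), and 33.6, 380 and 675 CPM in normal c-KITlo against 129 to 143 CPM in normal c-KIThi libraries (1.43, adjusted p = 0.254). The sort read surface protein, and the groups are named here by their labels. Summed B-cell markers reached 1148 to 5501 CPM in CML c-KITlo libraries and 135 to 198 CPM in CML c-KIThi libraries. In CML c-KITlo libraries nearly all of this was *Ighm* (1082 to 5407 CPM, against 0.662 to 8.43 CPM in CML c-KIThi libraries), while the B-cell genes *Ms4a1*, *Pax5* and *Blk* were at 0 in all CML c-KITlo libraries. *Cd79b* and *Vpreb1* of the same list were lower in CML c-KITlo libraries without overlap. *Cd79b* had 65.5 to 89.2 against 114 to 175 CPM, and *Vpreb1* 0.507 to 1.6 against 9.93 to 19.4 CPM. Summed T- and NK-cell markers were 212 to 257 CPM in CML c-KITlo and 398 to 1136 CPM in CML c-KIThi libraries, with *Cd3e*, *Cd3g* and *Cd8b1* at 0 in both. Most of this sum was *Nkg7* (170 to 221 against 308 to 1084 CPM), while *Lck* and *Klrb1c* overlapped. In the CML pair other summed lists were apart too: monocytes and macrophages (406 to 422 CPM in CML c-KITlo against 594 to 1091 CPM in CML c-KIThi libraries), erythroid cells (91 to 108 against 155 to 376 CPM), megakaryocytes (2365 to 2973 against 1178 to 2274 CPM) and endothelial and stromal cells (144 to 163 against 75.6 to 99.5 CPM, with 2 and 5 of 10 genes at 0). In the normal pair B cells (284 to 383 CPM in normal c-KITlo against 97.4 to 134 CPM in normal c-KIThi libraries) and endothelial and stromal cells (139 to 145 against 80.8 to 107 CPM) were apart. Of that B-cell sum *Cd79b* had 90.4 to 374 CPM in normal c-KITlo and 77.8 to 90.3 CPM in normal c-KIThi libraries. Markers gated out, neutrophils, and mast cells and basophils overlapped in both pairs, and each list of markers other than the LT-HSC list had 0 or 1 gene called in each direction between the c-KIT groups by edgeR. The part of these markers in the results on the Wnt genes was not tested. In bulk samples, fewer cells of a type and less RNA per cell cannot be told apart.

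Of the 10 core genes, 7 passed the filter on low counts and were tested among 14676 genes, and *Axin2*, *Tcf7* and *Lef1* did not. The question of the first comparison was which genes separate CML c-KITlo from CML c-KIThi LT-HSCs. *Ctnnb1* and *Axin1* were higher in CML c-KITlo LT-HSCs by edgeR's quasi-likelihood test, no core gene was called lower, and 5 of 7 did not pass. Among all tested genes 8.44% were called in this comparison and 2.91% were called higher, the background for these 2 of 7. The calls over all genes were 427 higher and 811 lower, and 8 higher and 197 lower once the trend of each library's counts on exonic length was taken out. The median log2 fold change was −0.19 over the 7 core genes and 0.05 over all tested genes.

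*Ctnnb1* (ENSMUSG00000006932.16; GRCm38 chr9:120929216-120960507, + strand, GENCODE M21 span) had 336, 358 and 352 CPM in CML c-KITlo LT-HSCs, against 78.7, 77.2 and 111 CPM in CML c-KIThi LT-HSCs. The groups did not overlap, and the 3 CML c-KITlo libraries lay within a factor of 1.07 of each other. The log2 fold change was 1.97 ± 0.47 (SE), or 3.92-fold, with an edgeR adjusted p of 0.0274. *Axin1* (ENSMUSG00000024182.16; chr17:26138688-26195811, + strand), the scaffold on which the destruction complex is built, had 157, 154 and 149 CPM in CML c-KITlo and 25.8, 32.8 and 40.1 CPM in CML c-KIThi LT-HSCs. Again every CML c-KITlo library was above every CML c-KIThi library, with a log2 fold change of 2.22 ± 0.63 (SE; 4.67-fold, edgeR adjusted p = 0.0481). The positive effector and one of its negative regulators were thus both higher in RNA. *Ulk4* lies on the opposite strand and shares 14.6% of the exonic bases of *Ctnnb1*, where unstranded reads of the genes cannot be told apart, and *Ulk4* had 61 counts over the CML c-KITlo and 75 over the CML c-KIThi group, beside 25237 and 2636 on *Ctnnb1*. These totals do not show how many reads fell on the shared bases.

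Both calls were lost when each library's trend on exonic length was taken out (*Ctnnb1*, log2 fold change 1.12, adjusted p = 0.247; *Axin1*, 1.61, adjusted p = 0.222), which also moved both fold changes by over 1.5 times, and when any 1 CML library was left out. Without CML c-KITlo library 1, 2 or 3 the edgeR adjusted p of *Ctnnb1* was 0.11, 0.102 or 0.111, and without CML c-KIThi library 1, 2 or 3 it was 0.0804, 0.131 or 0.0589, with log2 fold changes of 1.89 to 2.12. For *Axin1* the same 6 values were 0.151, 0.136 and 0.143, then 0.136, 0.17 and 0.106, and it was also lost without normal c-KIThi library 2 (0.0682) or 3 (0.0737) and with medians-of-ratios scaling (0.0553).

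**Figure D1:**
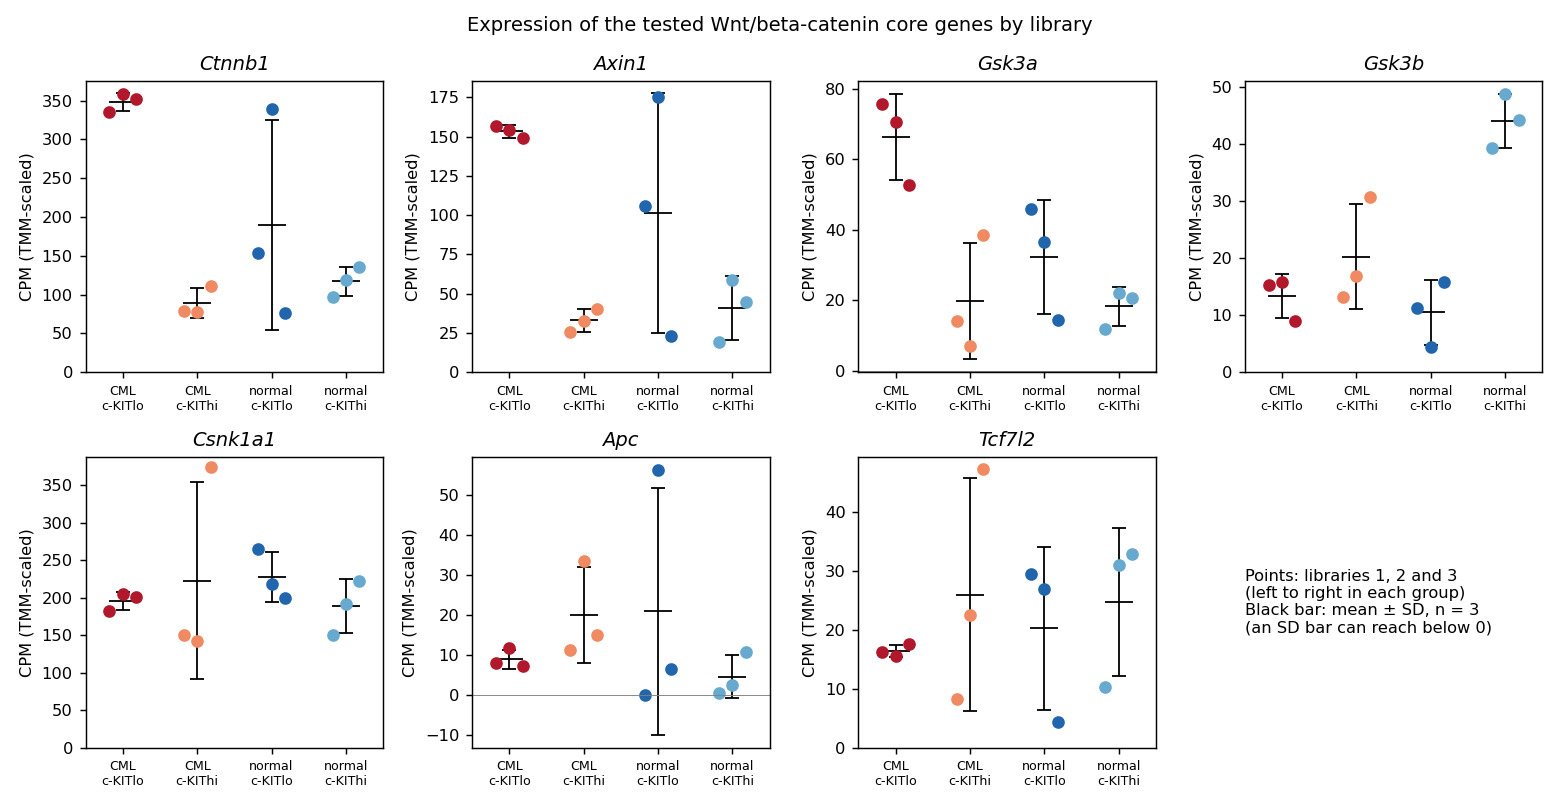
TMM-scaled CPM of the 7 tested core genes in each of the 12 libraries (points, libraries 1 to 3 from left to right in each group), with the mean and SD of each group as black bars. The CML c-KITlo libraries of *Ctnnb1* sit between 336 and 358 CPM and those of *Axin1* between 149 and 157 CPM, above every CML c-KIThi library, while the normal c-KITlo libraries spread from 75.8 to 339 CPM for *Ctnnb1*.

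Of the GSK-3 kinase genes, *Gsk3a* lay apart between the CML groups without passing the test, and *Gsk3b* overlapped. *Gsk3a* (ENSMUSG00000057177.12; chr7:25228258-25237851, – strand) had 75.8, 70.5 and 52.7 CPM in CML c-KITlo and 14.2, 6.95 and 38.4 CPM in CML c-KIThi LT-HSCs. The groups did not overlap, but the CML c-KIThi libraries spread 5.53-fold, and the log2 fold change of 1.74 ± 0.68 (SE) did not pass (edgeR adjusted p = 0.123, although below 0.05 before adjustment), while limma-voom with sample weights called it (2.64, adjusted p = 0.0019). That fit called 6282 of the 14676 tested genes, and it was the only 1 of 20 alternatives to call *Gsk3a*. *Gsk3b* (ENSMUSG00000022812.13; chr16:38089001-38246084, + strand) had 15.3, 15.8 and 8.91 CPM in CML c-KITlo and 13.1, 16.9 and 30.6 CPM in CML c-KIThi LT-HSCs. These values overlapped (log2 fold change −0.60 ± 0.65, edgeR adjusted p = 0.588). *Gsk3a* shares 28.3% of its exonic bases with the antisense gene 9130221H12Rik, which had 42 and 37 counts over the CML c-KITlo and CML c-KIThi groups, beside 4820 and 580 on *Gsk3a*. Reads on the shared bases are not known from these totals. In all, 3 of 7 core genes had CML c-KITlo libraries wholly above the CML c-KIThi libraries and 0 wholly below, where 27.6% of all tested genes lay wholly above and 23.6% wholly below (51.2% in either direction).

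The remaining tested genes overlapped between the CML groups. *Csnk1a1* (chromosome 18), the priming kinase of β-catenin, had 182, 205 and 201 CPM in CML c-KITlo and 151, 143 and 374 CPM in CML c-KIThi LT-HSCs. Its log2 fold change was −0.19 with an approximate 95% interval of −0.95 to 0.57 (edgeR adjusted p = 0.799), and it was 0.37 without CML c-KIThi library 3 and 0.19 with limma-voom. *Tcf7l2* (chr19:55741820-55933654, + strand), the only TCF/LEF gene of the core that was tested, had 16.3, 15.6 and 17.6 CPM in CML c-KITlo and 8.26, 22.5 and 47.3 CPM in CML c-KIThi LT-HSCs. The CML c-KITlo values lay inside the CML c-KIThi range (log2 fold change −0.65, interval −2.29 to 0.98, edgeR adjusted p = 0.652; 0.06 without CML c-KIThi library 3). *Apc* (chromosome 18), the second large scaffold, had 8.07, 11.6 and 7.09 CPM in CML c-KITlo and 11.3, 33.6 and 15.0 CPM in CML c-KIThi LT-HSCs. CML c-KITlo library 2 exceeded CML c-KIThi library 1, and the interval of −4.37 to 2.04 around a log2 fold change of −1.17 was the widest of the 7 (edgeR adjusted p = 0.687).

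The same contrast in normal LT-HSCs asked whether these genes also separate c-KITlo from c-KIThi cells without leukemia. By edgeR 0 of the 7 core genes were called, against 6.5% of all tested genes (3.1% higher and 3.4% lower). At an unadjusted p under 0.05 there was 1 (*Gsk3b*), against 26.6% of all genes, DESeq2 called 1 (*Gsk3b*) and limma-voom 0. Over all genes DESeq2 called 2672 and limma-voom 2. The median log2 fold change was 0.69 over the 7 and 0.16 over all tested genes.

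*Gsk3b* had 11.3, 4.36 and 15.7 CPM in normal c-KITlo LT-HSCs, against 39.2, 48.7 and 44.1 CPM in normal c-KIThi LT-HSCs. It was the only core gene whose normal groups did not overlap, all normal c-KITlo libraries being lower, as were 12.6% of all tested genes. The log2 fold change was −2.07 ± 0.67 (SE; edgeR adjusted p = 0.0787). The adjusted p was 0.00085 with DESeq2, 0.306 with limma-voom and 0.495 with the length trend taken out, where the log2 fold change was −0.97. It ranged from 0.053 to 0.187 over the fits without 1 library, the lowest without normal c-KITlo library 3.

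*Ctnnb1* had 153, 339 and 75.8 CPM in normal c-KITlo and 97.4, 119 and 135 CPM in normal c-KIThi LT-HSCs. Normal c-KITlo library 2 reached the CML c-KITlo level, and library 3 was below every normal c-KIThi library. The log2 fold change was 0.69 ± 0.45 (SE; edgeR adjusted p = 0.37), and without normal c-KITlo library 2 it was −0.01. *Axin1* had 106, 175 and 22.7 CPM in normal c-KITlo and 18.9, 58.8 and 44.5 CPM in normal c-KIThi LT-HSCs. The ordering of the normal c-KITlo libraries 2, 1 and 3 was thus the same as for *Ctnnb1*, and the log2 fold change of 1.31 ± 0.61 (edgeR adjusted p = 0.194) passed only without normal c-KITlo library 3 (1.81, adjusted p = 0.0312). *Gsk3a* had 45.8, 36.4 and 14.3 CPM in normal c-KITlo and 11.9, 22.1 and 20.7 CPM in normal c-KIThi LT-HSCs, and these overlapped through library 3 as well (0.82 ± 0.67, edgeR adjusted p = 0.486).

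Within the normal c-KITlo group *Csnk1a1* had the smallest ratio of highest to lowest library among the 7 genes. It had 265, 219 and 200 CPM in normal c-KITlo and 151, 192 and 223 CPM in normal c-KIThi LT-HSCs (log2 fold change 0.27, interval −0.49 to 1.03, edgeR adjusted p = 0.721). *Apc* had 0, 56.3 and 6.33 CPM in normal c-KITlo and 0.434, 2.53 and 10.6 CPM in normal c-KIThi LT-HSCs. The reading of 0 reads in normal c-KITlo library 1 allows up to 0.0995 CPM at a limit of 3 reads, in the library with the most counts on genes and the fewest genes with 10 or more counts (9760). The highest and the lowest value of *Apc* in all 12 libraries thus both fell in the normal c-KITlo group (log2 fold change 2.21 ± 1.69, edgeR adjusted p = 0.455). The sign rested on normal c-KITlo library 2: without it the log2 fold change was −0.50, and it was −0.78 with limma-voom and 3.82 without normal c-KIThi library 3. *Tcf7l2* had 29.6, 27.0 and 4.41 CPM in normal c-KITlo and 10.3, 31.1 and 32.9 CPM in normal c-KIThi LT-HSCs, and overlapped (−0.28 ± 0.83, edgeR adjusted p = 0.874; 0.22 without normal c-KITlo library 3 and 0.82 with the length trend taken out).

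**Figure D2:**
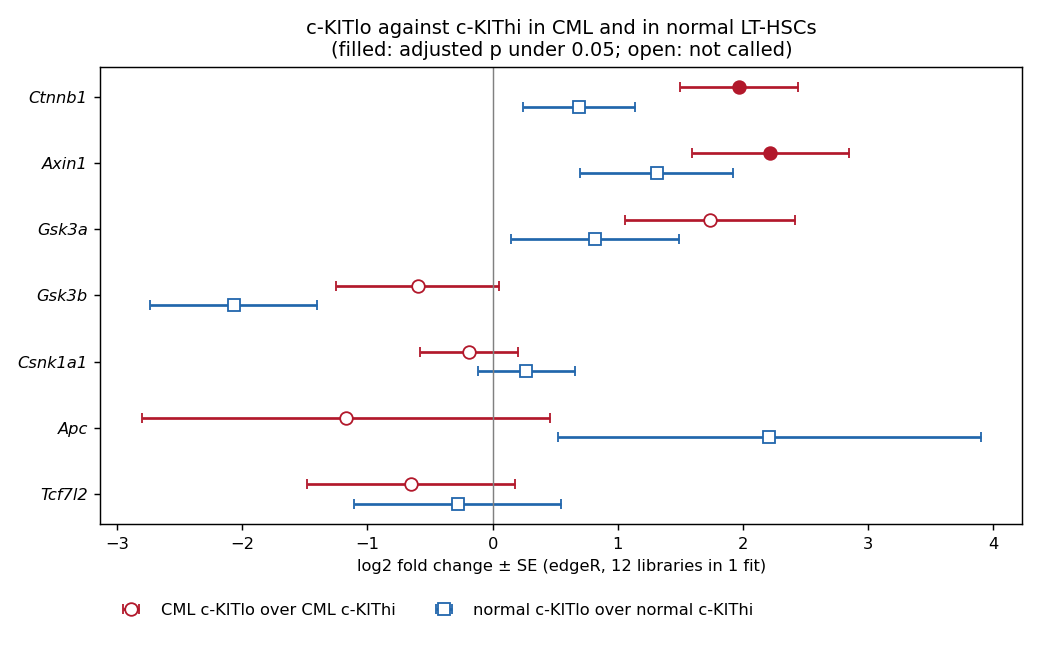
Log2 fold change of c-KITlo over c-KIThi LT-HSCs with its standard error (horizontal axis) for the 7 tested core genes, in CML (circles) and in normal LT-HSCs (squares); filled symbols passed an adjusted p of 0.05 in edgeR. Only *Ctnnb1* (1.97) and *Axin1* (2.22) in CML are filled, and the error bars of *Apc* are the longest in both comparisons.

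Whether the change with c-KIT differed between CML and normal LT-HSCs was tested as an interaction in the same edgeR fit. No core gene passed (0 of 7, with 0 at an unadjusted p under 0.05), and 0.0% of all tested genes did, although 11.3% had an unadjusted p under 0.05. DESeq2 and limma-voom also called 0 core genes, DESeq2 225 and limma-voom 0 of all genes. The log2 fold change in CML minus that in normal cells was 1.28 ± 0.64 (SE; interval 0.02 to 2.54, edgeR adjusted p = 0.473) for *Ctnnb1*, 0.92 ± 0.85 (adjusted p = 0.726) for *Axin1* and 0.92 ± 0.94 (adjusted p = 0.751) for *Gsk3a*. It was 1.47 ± 0.92 (edgeR adjusted p = 0.566) for *Gsk3b* (−0.32 with the length trend taken out) and −3.37 ± 2.35 (adjusted p = 0.622) for *Apc*. The interval of *Ctnnb1* left out 0, but it is approximate and too narrow. The unadjusted edgeR p of *Ctnnb1* in the interaction was 0.0692. The call of *Ctnnb1* and *Axin1* in CML and its absence in normal cells are therefore not a shown difference between them.

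Between leukemic and normal cells of the same c-KIT class, no core gene was called. In CML c-KITlo against normal c-KITlo LT-HSCs edgeR called 0 of 7, with 0 at an unadjusted p under 0.05, where 0.0954% of all genes were called (0.0681% higher and 0.0273% lower) and 13.6% had an unadjusted p under 0.05. DESeq2 and limma-voom called 0. *Ctnnb1* averaged 349 ± 11.5 CPM in CML c-KITlo and 189 ± 136 CPM in normal c-KITlo LT-HSCs (SD, n = 3 each; log2 fold change 0.88 ± 0.46, edgeR adjusted p = 0.415). The value depended on the processing: leaving out normal c-KITlo library 2, the one at 339 CPM, gave 1.61 with an edgeR adjusted p of 0.0346, leaving out library 3 gave 0.50 (adjusted p = 0.638), and taking out the length trend turned the sign (−0.08, adjusted p = 0.942). Taking out the length trend also moved the median log2 fold change over all genes in this contrast from −0.13 to −0.64. *Gsk3a* was the only core gene with non-overlapping groups, 52.7 to 75.8 CPM in CML c-KITlo against 14.3 to 45.8 CPM in normal c-KITlo libraries (1.04 ± 0.67, edgeR adjusted p = 0.539), where 12.3% of all genes were wholly higher and 7.84% wholly lower (20.1% in either direction). *Axin1*, *Gsk3b*, *Csnk1a1*, *Tcf7l2* and *Apc* overlapped, with log2 fold changes of 0.61, 0.35, −0.22, −0.30 and −1.23. Of these, *Csnk1a1* had the same sign in all alternatives run and the others did not: *Axin1* (−0.09) and *Gsk3b* (−1.45) turned with the length trend taken out, *Gsk3b* also without normal c-KITlo library 2 (−0.01), *Tcf7l2* without normal c-KITlo library 1 (0.07) and with limma-voom (0.22), and *Apc* without normal c-KITlo library 2 (1.51) and with limma-voom (1.91). This contrast shares its CML c-KITlo libraries with the first one.

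In CML c-KIThi against normal c-KIThi LT-HSCs edgeR again called 0 of 7, with 0 at an unadjusted p under 0.05, beside 0.0204% called and 6.66% at an unadjusted p under 0.05 among all genes. DESeq2 and limma-voom called 0. *Gsk3b* had 13.1, 16.9 and 30.6 CPM in CML c-KIThi and 39.2, 48.7 and 44.1 CPM in normal c-KIThi LT-HSCs, with every CML library below every normal one (−1.12 ± 0.65, edgeR adjusted p = 0.824), as in 6.36% of all genes. *Apc* had 11.3, 33.6 and 15.0 CPM in CML c-KIThi and 0.434, 2.53 and 10.6 CPM in normal c-KIThi LT-HSCs, with every CML library above every normal one, as in 7.97% of all genes, and a log2 fold change of 2.14 ± 1.69 (edgeR adjusted p = 0.913). *Ctnnb1* (−0.40), *Axin1* (−0.31), *Gsk3a* (0.13), *Csnk1a1* (0.24) and *Tcf7l2* (0.07) overlapped, and of these only *Ctnnb1* had the same sign in all alternatives run. For example, without CML c-KIThi library 3 *Gsk3a*, *Csnk1a1* and *Tcf7l2* were at −0.82, −0.40 and −0.73, and without normal c-KIThi library 2 *Axin1* was at 0.05. The value of *Apc* was 3.74 without normal c-KIThi library 3.

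The genes left out by the filter were nearly silent in these libraries. *Axin2* (chr11:108920349-108950783, + strand), widely used as a readout of β-catenin activity, had 27, 7 and 5 reads in CML c-KITlo, 0, 2 and 0 in CML c-KIThi, 0, 0 and 0 in normal c-KITlo and 0, 2 and 21 in normal c-KIThi libraries. It was seen in all CML c-KITlo libraries and in 1 of 3 CML c-KIThi libraries, and 64 reads in all fell on it. The ratio of group rates, CML c-KITlo over CML c-KIThi, was 8.05 with a 95% counting interval of 2.09 to 68.9, which covers counting error only and rests largely on library 1. Against the 0 reads of the normal c-KITlo group the CML c-KITlo rate was at least 11.7-fold higher (limit of 3 reads over the group), while within the normal pair normal c-KITlo was at least 22.1-fold lower than normal c-KIThi, where 21 of 23 reads came from library 3. *Tcf7* (chr11:52252371-52283014, – strand), the gene of TCF1, had 18 reads in CML c-KITlo library 2, 6 and 3 in normal c-KIThi libraries 2 and 3, and 0 in the other 9 libraries, so that its rate over the CML c-KITlo group was at least 5.41-fold higher than over the normal c-KITlo group (limit of 3 reads over the group), with all 18 reads from 1 library. *Lef1* (chr3:131110471-131224356, + strand) had 1 and 39 reads in normal c-KITlo libraries 1 and 2, 9 in normal c-KIThi library 3, and 0 in all CML libraries, at least 14.8-fold lower in the CML c-KITlo than in the normal c-KITlo group, where 39 of 40 reads came from library 2. For *Lef1*, 0 reads over the 3 CML c-KITlo libraries allow up to 0.0414 CPM and over the 3 CML c-KIThi libraries up to 0.1 CPM at a limit of 3 reads. *Lef1* shares 13.7% of its exonic bases with Gm43352 and *Axin2* 3.8% with Gm11670.

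**Figure D3:**
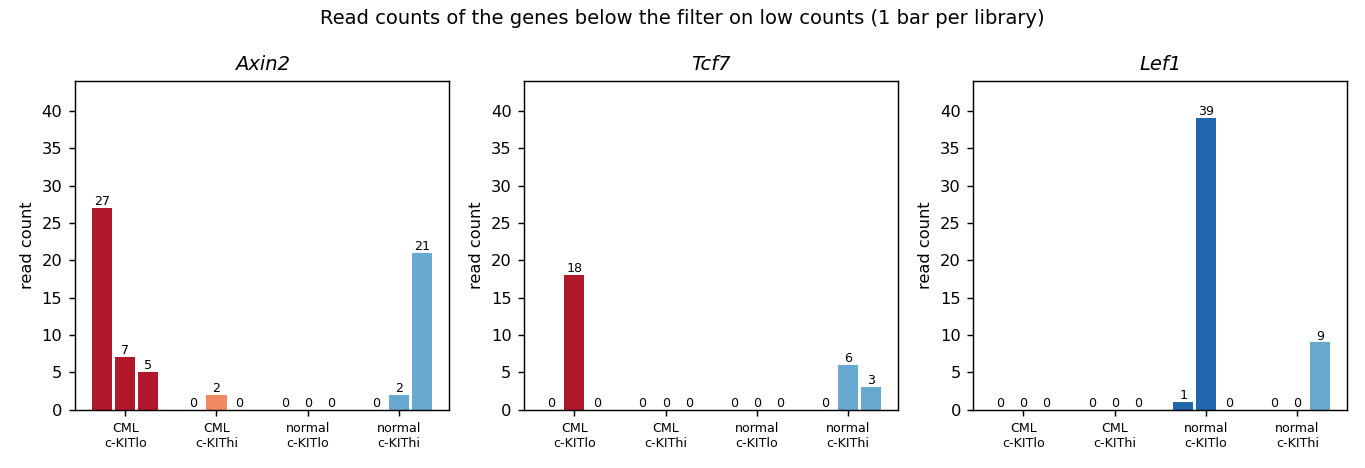
Read counts (bars, 1 per library, with the count above each) of *Axin2*, *Tcf7* and *Lef1*, which were below the filter on low counts. *Axin2* has reads in all 3 CML c-KITlo libraries (27, 7 and 5), and *Lef1* has none in any CML library.

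Set per length, *Ctnnb1* was the most abundant core transcript in CML c-KITlo LT-HSCs at 67.2 ± 2.21 CPM per kb of exon (SD, n = 3), followed by *Axin1* at 40.2 ± 1.09. *Gsk3a* (22.9 ± 4.16) and *Csnk1a1* (18.6 ± 1.15) came next, with overlapping libraries. *Tcf7l2* (1.88 ± 0.114) and *Gsk3b* (1.36 ± 0.389) were an order lower, and *Apc* was at 0.553 ± 0.146 CPM per kb. In CML c-KIThi LT-HSCs the libraries of *Csnk1a1* (21.2 ± 12.4) and *Ctnnb1* (17.1 ± 3.69 CPM per kb) overlapped and all lay above those of *Axin1* (8.59 ± 1.86) and *Gsk3a* (6.85 ± 5.68), which overlapped in turn. *Ctnnb1* also had the highest mean in normal c-KITlo (36.5 ± 26.1) and in normal c-KIThi LT-HSCs (22.5 ± 3.6 CPM per kb), but its libraries overlapped those of *Axin1* in normal c-KITlo and of *Csnk1a1* in both. *Gsk3b* stood at 1.06 ± 0.58 CPM per kb in normal c-KITlo and 4.47 ± 0.485 in normal c-KIThi LT-HSCs, its highest level of the 4 groups. *Apc*, at 16116 exonic bases the longest gene of the core, had the lowest level per length of the tested genes in 3 of 4 groups.

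Ratios of counts within 1 library need no scaling between libraries. The pairs were chosen after the values were seen, so they are given as a description. *Gsk3a* had 4.96, 4.47 and 5.92 reads for each *Gsk3b* read in CML c-KITlo libraries and 1.08, 0.412 and 1.25 in CML c-KIThi libraries. In normal c-KITlo libraries the ratio was 4.05, 8.36 and 0.91, and in normal c-KIThi libraries 0.303, 0.455 and 0.468. The ratio was thus higher in c-KITlo than in c-KIThi libraries without overlap in both CML and normal cells. *Gsk3b* has 9831 and *Gsk3a* 2900 exonic bases, and the part of length in these ratios was not tested. *Ctnnb1* had 1.85, 1.75 and 1.76 reads for each *Csnk1a1* read in CML c-KITlo and 0.52, 0.539 and 0.297 in CML c-KIThi libraries. In normal cells this ratio overlapped, at 0.578, 1.55 and 0.379 in normal c-KITlo and 0.646, 0.621 and 0.603 in normal c-KIThi libraries.

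**Figure D4:**
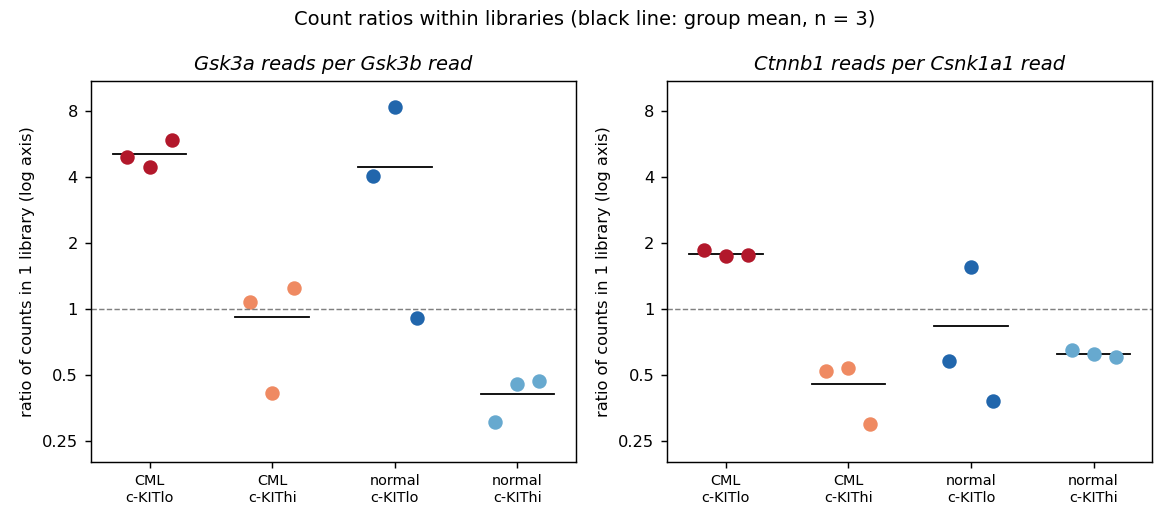
Ratio of read counts within each library (points; log2-spaced axis) for *Gsk3a* over *Gsk3b* and *Ctnnb1* over *Csnk1a1*, with the group mean as a line. *Gsk3a* over *Gsk3b* averages 5.12 in CML c-KITlo, 0.917 in CML c-KIThi, 4.44 in normal c-KITlo and 0.408 in normal c-KIThi libraries.

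Over the 12 libraries, 5 genes had the pattern most like that of *Ctnnb1* among 7179 tested genes with a mean of at least 20 CPM, by the root mean square difference of log2 CPM after centring each gene on its own mean. They were *Aftph* (0.209), *Kat14* (0.223), *Glyr1* (0.235), *Coro1c* (0.243) and *Dcaf8* (0.251). *Glyr1*, for example, averaged 244 CPM in CML c-KITlo, 61.4 in CML c-KIThi, 154 in normal c-KITlo and 81.4 in normal c-KIThi LT-HSCs. Of the core genes *Axin1* was nearest at 0.441, with 1.78% of the 7179 genes nearer, then *Gsk3a* at 0.538 (4.47%), *Csnk1a1* at 0.885 (24.9%), *Tcf7l2* at 1.1 (40.5%), *Gsk3b* at 1.6 (70.0%) and *Apc* at 2.35 (91.1%). All points share library depth and the c-KIT gate.

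Beyond the core, 125 other genes of the pathway were listed and 81 were tested. In CML c-KITlo against CML c-KIThi LT-HSCs 3 rose and 0 fell by edgeR, beside the 8.44% called over all genes, with a median log2 fold change of 0.54 over the 81 and 0.05 over all tested genes. This count depended on the fit: DESeq2 called 12 (10 higher, 2 lower), limma-voom 32 (28 higher, 4 lower), a fit of only the 2 groups 23 (20 higher, 3 lower), no filter 6 (5 higher, 1 lower), the fit with the length trend taken out 0, and the fits without 1 library 0 to 10. The calls over all genes rose and fell with the fit as well. In the same order they were 3146, 6282 (of 14676 tested), 4807, 1717 and 205, and 0 to 2084 without 1 library. *Ctbp1*, a corepressor that can act with TCF/LEF factors, averaged 534 ± 58.4 CPM in CML c-KITlo and 85.9 ± 42.7 CPM in CML c-KIThi LT-HSCs (SD, n = 3 each; 6.22-fold, edgeR adjusted p = 0.0194). *Myc*, a proto-oncogene and a commonly cited Wnt target, had 424, 437 and 524 CPM in CML c-KITlo and 235, 173 and 161 CPM in CML c-KIThi LT-HSCs, without overlap (2.43-fold, edgeR adjusted p = 0.0333). *Csnk1d*, another casein kinase 1 gene, averaged 327 ± 3.24 CPM in CML c-KITlo and 94.5 ± 30.1 CPM in CML c-KIThi LT-HSCs (3.46-fold, edgeR adjusted p = 0.0467). With the length trend taken out none of these passed (*Ctbp1*, log2 fold change 1.90 beside 2.64 in the edgeR fit of the counts, adjusted p = 0.137; *Myc*, 1.23 beside 1.28, adjusted p = 0.211; *Csnk1d*, 0.91 beside 1.79, adjusted p = 0.35). Leaving out any CML library ended the call of *Csnk1d* (0.0689 to 0.173), any but CML c-KIThi library 3 that of *Ctbp1* (0.0593 to 0.104) and any but CML c-KIThi library 1 that of *Myc* (0.111 to 0.152), and *Csnk1d* and *Myc* were also lost without normal c-KIThi library 2 (0.0696 and 0.0545) or 3 (0.0697 and 0.0535).

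In normal c-KITlo against normal c-KIThi LT-HSCs 3 of the 81 rose and 0 fell by edgeR, beside 6.5% called over all genes, with a median log2 fold change of 0.28 over the 81 and 0.16 over all tested genes. DESeq2 called 9 (8 higher, 1 lower), limma-voom 0, a fit of only the 2 groups 0, no filter 7 (5 higher, 2 lower), the fit with the length trend taken out 1, and the fits without 1 library 0 to 8. In the same order the calls over all genes were 2672, 2, 26, 1474 and 386, and 0 to 1849 without 1 library. *Btrc*, whose product recognizes phosphorylated β-catenin for ubiquitination, averaged 105 ± 61.7 CPM in normal c-KITlo and 19.9 ± 6.97 CPM in normal c-KIThi LT-HSCs (SD, n = 3 each; 5.27-fold, edgeR adjusted p = 0.0323). *Ppp2r1a*, a scaffold subunit of protein phosphatase 2A, averaged 460 ± 156 and 127 ± 6.06 CPM in the same groups (3.63-fold, edgeR adjusted p = 0.0331), and *Jup*, encoding the β-catenin relative plakoglobin, 21.3 ± 19.7 and 1.82 ± 0.595 CPM (11.6-fold, edgeR adjusted p = 0.0452). All 3 calls ended without any 1 of the normal c-KIThi libraries, of the CML c-KITlo libraries or without normal c-KITlo library 1, with edgeR adjusted p from 0.0618 to 0.132, and with limma-voom (0.11 for *Btrc*, 0.167 for *Ppp2r1a* and 0.35 for *Jup*). *Jup* was also lost without normal c-KITlo library 2 (log2 fold change 2.56 beside 3.54, adjusted p = 0.0853) or CML c-KIThi library 1, 2 or 3 (0.0538, 0.0672 and 0.0604) and *Btrc* without CML c-KIThi library 2 (0.0525), and taking out the length trend gave a log2 fold change of 3.96 beside 2.40 for *Btrc* (adjusted p = 0.064) and 1.91 beside 1.86 for *Ppp2r1a* (adjusted p = 0.082). CML c-KITlo libraries were also wholly above CML c-KIThi libraries for *Jup* (log2 fold change 3.08, edgeR adjusted p = 0.0557) and *Ppp2r1a* (1.44, adjusted p = 0.0598). Neither was called there, 27.6% of all tested genes lay wholly higher, and *Btrc* overlapped (0.39, adjusted p = 0.681). *Jun*, an AP-1 gene and Wnt target, was the only one of the 81 called in CML c-KITlo against normal c-KITlo LT-HSCs, with 2129, 1848 and 1303 CPM against 176, 243 and 187 CPM (8.71-fold, edgeR adjusted p = 0.0246). It lost the call without CML c-KITlo library 1 or 2 or normal c-KITlo library 1 (edgeR adjusted p = 0.104, 0.137 and 0.0708) and with the length trend taken out (0.102), limma-voom (0.0608) or only the 2 groups in the fit (0.155). Beside it stand the 0.0954% of all genes called there. *Jun* was also higher in CML c-KIThi than in normal c-KIThi LT-HSCs, without overlap but not called (3.65-fold, edgeR adjusted p = 0.206). In CML c-KIThi against normal c-KIThi LT-HSCs edgeR called 0 of the 81, with 5 at an unadjusted p under 0.05, DESeq2 1, limma-voom 2 and edgeR with no filter 1. Over all genes these fits called 3, 190, 81 and 118, and 6.66% had an unadjusted p under 0.05 by edgeR. In the interaction edgeR called 0, with 6 at an unadjusted p under 0.05, DESeq2 and limma-voom 0, edgeR with no filter 1 and edgeR without normal c-KITlo library 2 called 2. Over all genes the last 2 of these fits called 137 and 416, and 11.3% had an unadjusted p under 0.05 by edgeR.

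By role, the Wnt ligands were mostly below the filter and most receptors above it. Of 19 Wnt ligand genes 2 were tested and 3 had no read in any library, and edgeR called 0 of the 2, with 1 at an unadjusted p under 0.05 in CML c-KITlo against normal c-KITlo LT-HSCs and 0 in the other comparisons, while of 15 receptor and co-receptor genes 12 were tested. The counts of called genes stand beside the 2.91% of all genes called higher in the CML pair and 3.1% in the normal pair. An unadjusted p under 0.05 by edgeR was reached by 26.9% of all genes in the CML pair and 26.6% in the normal pair. The shares were 13.6% in CML c-KITlo against normal c-KITlo and 6.66% in CML c-KIThi against normal c-KIThi LT-HSCs, and 11.3% in the interaction. By edgeR 0 receptor genes were called in the 5 comparisons, with 0 at an unadjusted p under 0.05, and their median log2 fold change was 0.90 in CML c-KITlo against CML c-KIThi LT-HSCs and 0.30 in the normal pair. Of 28 cytoplasmic regulators of β-catenin turnover 27 were tested, and 1 rose in the CML pair and 2 in the normal pair, with medians of 0.54 and 0.82. In these pairs 7 and 6 of the 27 had an unadjusted p under 0.05. Of 21 nuclear partners 20 were tested, and 1 rose in the CML pair and 0 in the normal pair, with medians of 0.27 and −0.22. At an unadjusted p under 0.05 there were 4 and 3 of the 20. The secreted and membrane inhibitors (3 of 14 tested) and the secretion and R-spondin genes (5 of 11 tested) had 0 called by edgeR in the CML and normal pairs, with 0 and 2 inhibitors and 0 and 0 secretion genes at an unadjusted p under 0.05. Of 18 commonly used target genes 11 were tested, of which *Myc* rose in the CML pair and *Jun* in CML c-KITlo against normal c-KITlo LT-HSCs. Of the 11, 2 in the CML pair and 1 in the normal pair had an unadjusted p under 0.05. Of 6 adherens junction partners 4 were tested, and *Jup* rose in the normal pair. Of the 4, 3 in the CML pair and 3 in the normal pair had an unadjusted p under 0.05.

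**Figure D5:**
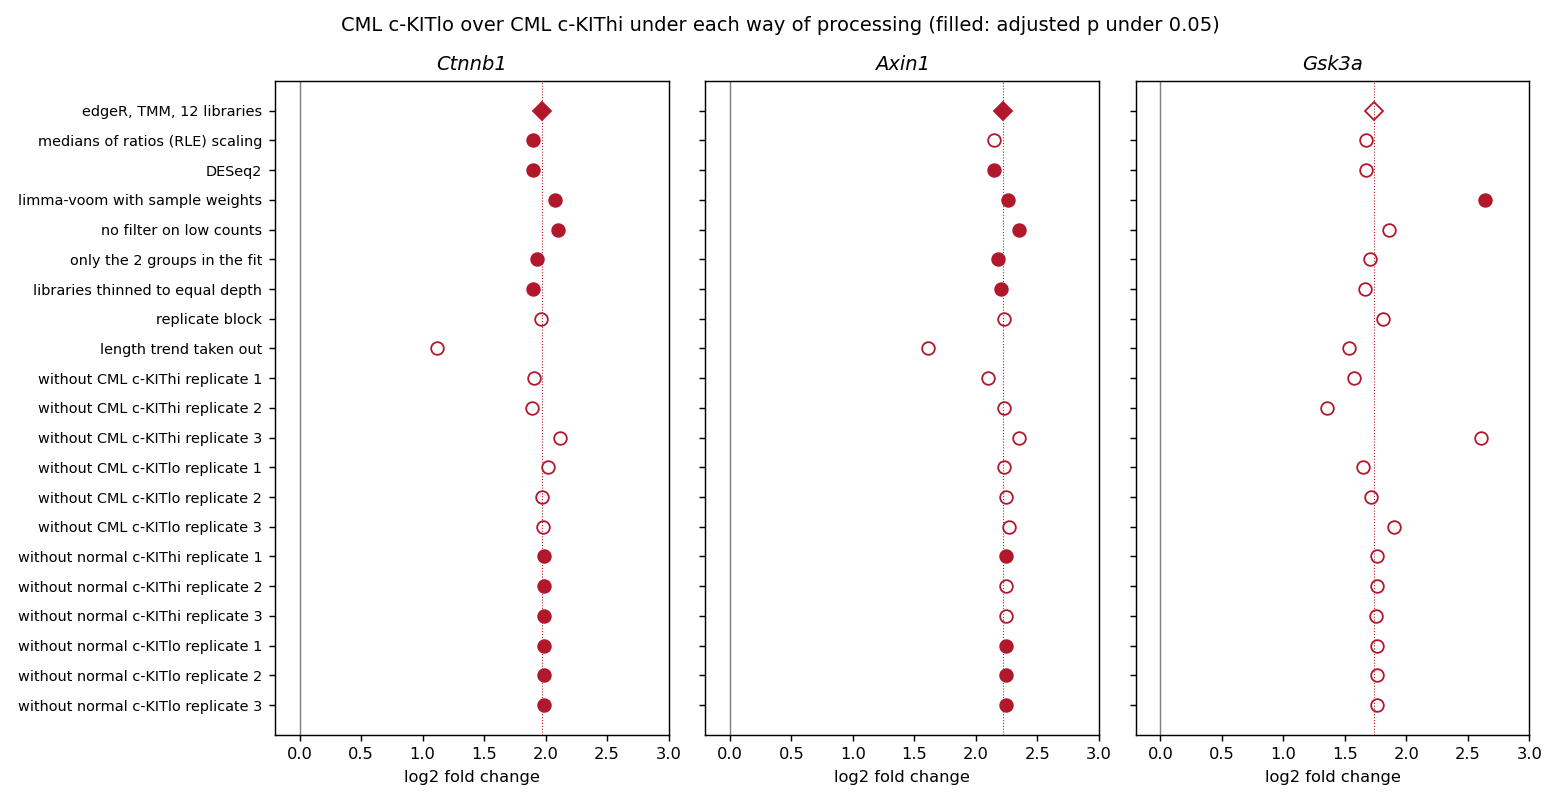
Log2 fold change of *Ctnnb1*, *Axin1* and *Gsk3a* in CML c-KITlo over CML c-KIThi LT-HSCs (horizontal axes) under each way of processing listed on the vertical axis (diamond, the edgeR fit of all 12 libraries), filled where the adjusted p was under 0.05. *Ctnnb1* lies between 1.12 and 2.12 and *Axin1* between 1.61 and 2.35 throughout, above 0 in each of the 21 fits, and both are open in the 6 fits that leave out a CML library.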

How the data were processed

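RNA-Seq was performed on sorted LT-HSCs, with cDNA made by a SMARTer low-input kit and libraries by Nextera XT, which do not mark strand. The deposited values are raw counts per gene for 12 libraries in 1 table. The authors aligned reads with STAR 2.5.3a to GRCm38 and counted with HTSeq 0.9.1, and the submitters' processing notes also name DRAGEN and DESeq2 1.22.2. Library sizes and tests did not include the 5 HTSeq classes of unassigned entries (genes held 43.9% to 60.6% of entries in c-KITlo and 24.4% to 37.1% in c-KIThi libraries), and 48349 of 48795 identifiers had a symbol in the GENCODE M21 annotation.

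Counts were analysed in R 4.3.3 with edgeR 4.0.16 (filterByExpr, TMM scaling, quasi-likelihood F test), with the 4 groups in 1 fit of 12 libraries and 8 residual degrees of freedom. The 5 contrasts were read from that fit, p-values were adjusted by Benjamini-Hochberg over 14676 genes, and a gene was called at an adjusted p under 0.05. Intervals of fold changes are approximate 95% intervals from the SE. They use a normal multiplier and can be narrower than the edgeR test allows. Alternatives were RLE scaling, DESeq2 1.42.0, limma-voom (limma 3.58.1) with sample weights, no filter, only the 2 groups compared, libraries thinned to 7753878 counts, a replicate block, a loess trend of log counts on exonic length taken out per library (span 0.3), and each library left out. The edgeR, DESeq2 and limma-voom fits of all 12 libraries were also run on simulated counts, and the other alternatives were not. The outcome of the simulated runs is not given here, and no result above rests on it. Intervals and limits on read counts cover counting error only.

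Named genes were the 10 core genes, up to 4 genes per pathway list with the smallest p among those called, and the 5 genes nearest to *Ctnnb1* among genes with a mean of at least 20 CPM (log2 CPM with a prior count of 2). The core genes, lists, markers and tests were chosen with earlier results of these data known. Promoter windows and coordinates are from RefSeq (GRCm38.p6) and GENCODE M21.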

Additional observations from a re-analysis of the deposited data

How the results depend on the processing

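Among 87 single values (fold changes and group levels of genes, and counts of pathway genes called), the alternatives gave 870 values on the same side of the threshold or within the spread, 92 that lost a call, 4 that gained one, 46 levels or counts that moved and 0 called values that changed sign, while 32 of 693 fits of core genes had another sign with neither fit called. The 2 core calls in CML c-KITlo against CML c-KIThi became 1 with RLE scaling and 0 with the length trend taken out, and 0 to 2 without 1 library. In normal c-KITlo against normal c-KIThi the 0 core calls became 1 with DESeq2 and 0 to 1 without 1 library, and in CML c-KITlo against normal c-KITlo 0 to 1. Over all genes, the 1238 calls in the CML pair (427 higher, 811 lower) became 3146 with DESeq2, 6282 with limma-voom, 4807 with only the 2 groups and 205 (8 higher, 197 lower) with the length trend taken out, and 0 to 2084 without 1 library. The 954 calls in the normal pair became 2672 with DESeq2, 2 with limma-voom, 1474 with no filter, 26 with only the 2 groups and 386 with the length trend taken out, and 0 to 1849 without 1 library. The 14 calls in CML c-KITlo against normal c-KITlo became 499 with DESeq2, 6 with limma-voom, 247 with no filter, 0 with only the 2 groups and 4 with the length trend taken out, and 1 to 910 without 1 library. The 3 calls in CML c-KIThi against normal c-KIThi became 190 with DESeq2, 81 with limma-voom, 118 with no filter, 1 with only the 2 groups and 1 with the length trend taken out, and 0 to 8 without 1 library. The 0 calls in the interaction became 225 with DESeq2, 137 with no filter, and 0 to 416 without 1 library. With the length trend taken out, the median log2 fold change over all genes was −0.18, against 0.05, in the CML pair and −0.64, against −0.13, in CML c-KITlo against normal c-KITlo. Of the pathway genes, *Csnk1d* and *Jup* lost their calls with RLE scaling (edgeR adjusted p = 0.054 and 0.0523), *Myc* with no filter (0.0707), and *Btrc*, *Ppp2r1a*, *Jup* and *Jun* with only the 2 groups (0.14, 0.116, 0.264 and 0.155). The cause of these changes was not tested.

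Same-numbered libraries did not deviate together (correlations of −0.136 to 0.0961 over 18 pairs of groups and numbers), so the numbers were not taken to pair the libraries. With a replicate block the CML pair had 430 calls over all genes and 0 core calls, the normal pair 199, CML c-KITlo against normal c-KITlo 1 and CML c-KIThi against normal c-KIThi 0. The block also left 0 calls among the other pathway genes in the CML and in the normal pair, and *Jun* lost its call (edgeR adjusted p = 0.125). *Axin2*, *Tcf7* and *Lef1* had 64, 27 and 49 reads over the 12 libraries, so for them only ratios and limits from read counts were given.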
